A study of Mus musculus with 6 samples.

Results

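The transcriptome of mouse dermal fibroblasts after 4 h with interleukin-1 (IL-1) was compared with that of untreated fibroblasts, on 2 of the study's 6 two-colour microarrays. The arrays were chosen by their label, which names the 4 h treatment; the other 4 arrays hold the 1 h and 2 h treatments. The cells were cultured from C57BL/6 mice in DMEM with 10% serum, and the labels do not say which form of IL-1 was given. Treated cells received 20 ng/ml IL-1 for 4 h, and the untreated cells (0 h) were the control on every array. No genotype other than the strain, no age of the mice and no passage number is given in the sources used here.

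Both arrays compared the same kinds of RNA with the dyes exchanged, so replicate 1 had the treated RNA in Cy5 and replicate 2 had it in Cy3. They count as 1 sample, with no biological replicate and therefore no test. Whether a single untreated extract served all arrays is not stated. Each value is the log2 of treated over untreated signal, so that 1 stands for a doubling, and the direction rests on the dyes named in the labels. The figure after ± is the distance of either array from their mean, a technical error only, with a median of 0.0575 and a 95th percentile of 0.187 over the 22209 genes measured. A gene was counted as higher or lower only where both arrays passed a size threshold.

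IL-1 binds a receptor on fibroblasts that signals through the adaptor Myd88 and the Irak kinases to NF-kB and to the MAP kinases. NF-kB is held in the cytoplasm by inhibitor proteins of the IkB family, whose genes are themselves NF-kB targets, as are those of many chemokines, cytokines and adhesion molecules. In skin, fibroblasts exposed to IL-1 are known for attracting leukocytes and for altering the turnover of the matrix that they make.

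At 4 h, 30 of the 22209 genes (0.135%) had a log2 ratio of at least 1 on both arrays, and 0 (0.00%) had a ratio of at most -1 on both. At a threshold of 0.5 in size, 111 genes (0.50%) were higher and 26 (0.117%) were lower. The median over all genes was 0.0027. Of the 30 genes, chemokines, Il6 and the serine protease inhibitor gene Serpina3g had the highest means. Next came Angptl4 (1.89) and a transcript without a symbol, and then the NF-kB inhibitor gene Nfkbia (1.87). The genes below these included other components and regulators of NF-kB and adhesion molecules. The untreated signal of all 30 was well above background on both arrays, and the largest distance of an array from the mean among them was 0.22, for Cxcl5. The genes with the smallest passing values were Vcam1 (1.07 on replicate 1 and 1.02 on replicate 2) and Lrig1 (1.14 and 1.00). Just outside were Ttc39c (0.99 and 1.20), Serpinb2 (1.03 and 0.99) and Cxcl16 (1.27 and 0.95).

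**Figure D1:**
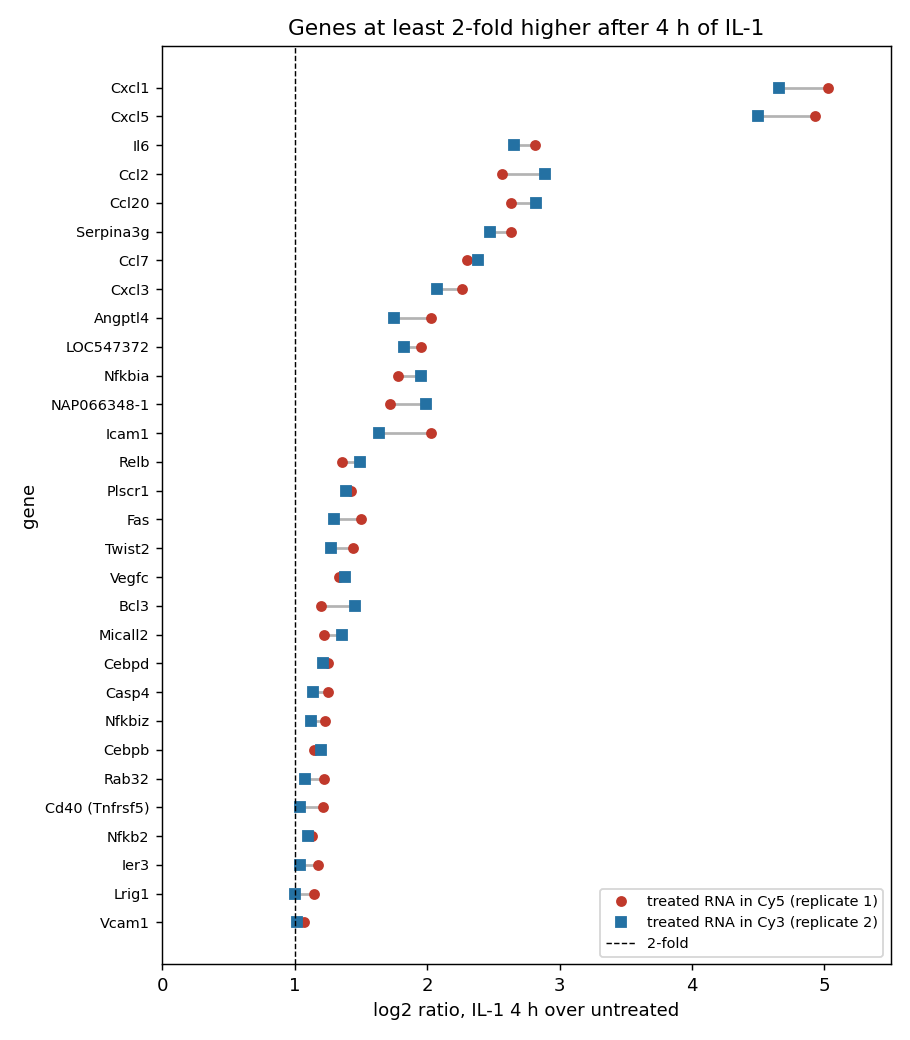
Log2 ratio of IL-1 4 h over untreated for the 30 genes at least 2-fold higher on both arrays, ordered by their mean. Circles are replicate 1 (treated RNA in Cy5), squares replicate 2 (treated RNA in Cy3), and the dashed line marks a log2 ratio of 1. Cxcl1 and Cxcl5 lie above 4 on both arrays, while the remaining genes lie below 3.

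**Figure D2:**
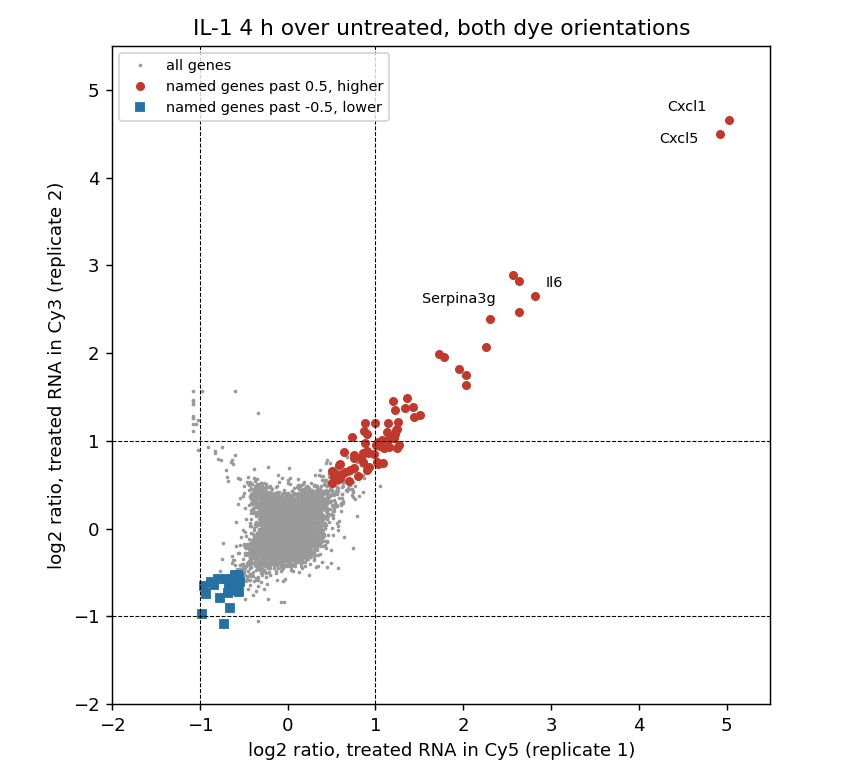
Log2 ratio with the treated RNA in Cy3 (vertical axis) against that with the treated RNA in Cy5 (horizontal axis), 1 point per gene, with dashed lines at 1 and -1. Points in the upper right passed upward on both arrays. The 12 genes past 1 in opposite directions lie in the upper left, and all had saturated spots.

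Promoter sequence is shown for the genes among these 30 that held a kB-type motif, the kind of sequence that NF-kB dimers bind. RefSeq promoters (GRCm38.p6) were matched by symbol for 19 of the 28 genes that carry one, and the 250 bases before the start were searched on both strands for GGG, any 3 bases and TTCC, counting overlapping matches separately. The motif lay in at least 1 promoter of 8 of these 19 genes (42.1%), against 1434 of all 27025 genes in the table (5.3%). Among the named genes that were lower by at least 0.5, it lay in 1 of 16 (6.2%). A match is a run of letters and was not tested as a binding site, and a promoter without one says only that these letters are not in that window. The matches are in capitals below, with 25 flanking bases where the window allows, read 5′ to 3′ on the strand of the gene. The stretches are chr5:90891131-90891209 (+) for Cxcl1, chr5:30013045-30013104 (+) for Il6, chr1:83116661-83116720 (+) for Ccl20 and chr12:104236037-104236096 (+) for Serpina3g. Those of the others are chr5:90786003-90786085 (+) for Cxcl3, chr12:55492648-55492701 (-) for Nfkbia, chr9:5308731-5308848 (+) for Casp4 and chr19:46304674-46304736 (+) for Nfkb2.
Cxcl1: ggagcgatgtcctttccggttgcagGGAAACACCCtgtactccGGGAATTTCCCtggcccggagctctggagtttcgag
Il6: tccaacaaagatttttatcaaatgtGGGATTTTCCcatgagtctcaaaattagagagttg
Ccl20: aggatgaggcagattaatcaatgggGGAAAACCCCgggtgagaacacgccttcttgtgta
Serpina3g: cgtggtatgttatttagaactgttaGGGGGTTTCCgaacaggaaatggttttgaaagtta
Cxcl3: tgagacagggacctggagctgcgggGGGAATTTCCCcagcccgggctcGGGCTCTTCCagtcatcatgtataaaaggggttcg
Nfkbia: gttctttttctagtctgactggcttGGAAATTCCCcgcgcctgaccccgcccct
Casp4: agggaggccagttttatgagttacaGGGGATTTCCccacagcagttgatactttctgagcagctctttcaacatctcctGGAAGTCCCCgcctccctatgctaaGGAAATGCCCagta
Nfkb2: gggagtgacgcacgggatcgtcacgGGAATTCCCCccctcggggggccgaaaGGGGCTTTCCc
The first match began 89 bases before the start in Cxcl1, 44 in Il6 and 29 in Nfkbia. Cxcl1 and Cxcl3 held a run in which 2 matches on opposite strands overlap. The other 11 matched genes, among them Icam1, Bcl3, Vegfc and Twist2, had 0 matches in the window.

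Chemokines of the CXC family, which attract neutrophils through the receptor Cxcr2 where they carry an ELR motif, had the highest ratios of the experiment. Cxcl1 stood at 5.03 on replicate 1 and 4.66 on replicate 2, a mean of 4.84 ± 0.18 or 28.7-fold. Cxcl5 stood at 4.93 and 4.50, a mean of 4.71 ± 0.22 or 26.2-fold. Cxcl3 stood at 2.26 and 2.07, a mean of 2.17 ± 0.10 or 4.50-fold. All of these belong to the neutrophil-attracting group, and in each the value with the treated RNA in Cy5 was the higher one. Cxcl16, a membrane-bound scavenger receptor as well as a chemokine, averaged 1.11, and its second probe averaged 1.17. Cx3cl1, a membrane-bound attractant of monocytes and T cells, stood at 0.90 and 1.08. Of the 11 measured genes of 16 in the CXC and CX3C list, 3 were 2-fold higher, 5 were higher by at least 0.5 and 0 were lower, with a median of 0.40 that became 1.08 with the scanner's processed signals. Cxcl2, a close relative of Cxcl1, was at 0.39 and 0.38, a mean that became 1.08 with the same signals, and Cxcl14, which skin makes constitutively, was at -0.45 and -0.69.

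Of the CC chemokines, 17 of 19 were measured, 3 were 2-fold higher, 4 were higher by at least 0.5 and 0 were lower, with a median of 0.18. Ccl2, an attractant of monocytes, stood at 2.57 and 2.89, a mean of 2.73 ± 0.16 or 6.63-fold. Its treated spot was saturated on 1 of the 2 arrays, where the ratio is bounded by the scanner. Ccl7, a related attractant whose gene neighbours Ccl2, stood at 2.30 and 2.38, a mean of 2.34 or 5.08-fold, and a second probe gave 2.23. Ccl20, the ligand of Ccr6 on Th17 cells and immature dendritic cells, stood at 2.64 and 2.82, a mean of 2.73 or 6.63-fold. The eosinophil attractant Ccl11 was at 1.08 and 0.75, and Ccl9 passed 0.5 on replicate 1 (0.75) but not on replicate 2 (0.43). Ccl5, an attractant of T cells, was at 0.33 and 0.48.

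Il6, the cytokine that drives the hepatic acute-phase response, stood at 2.81 and 2.65, a mean of 2.73 ± 0.08 or 6.65-fold. It was the only 2-fold higher gene of the 21 measured (of 24) in the cytokine list, whose median was 0.03. The granulocyte-macrophage factor Csf2 was the other member past 0.5, at 0.80 and 0.60. Its untreated signal was not well above background on either array, so its ratio is a lower bound of at least 1.58-fold, set against the lowest signal among probes well above background. The macrophage factor Csf1 was at 0.42 and 0.54, and the receptor antagonist Il1rn was at 0.59 and 0.35. Tnf and Il1a, themselves cytokines that activate NF-kB, had means of -0.01 and 0.05, and those of Lif and Il11 were 0.02 and 0.06.

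The NF-kB list was among the lists with most members past the thresholds. Of 28 measured genes of 30, 5 were 2-fold higher, 9 were higher by at least 0.5 and 0 were lower, and the median was 0.31. Nfkbia, which encodes the inhibitor IkB-alpha, was highest at 1.78 and 1.95, a mean of 1.87 or 3.65-fold. Relb, a subunit of the non-canonical dimer, was at 1.36 and 1.49, and its partner Nfkb2 was at 1.13 and 1.10. Bcl3 and Nfkbiz, atypical nuclear IkB proteins that act as cofactors, averaged 1.33 and 1.18. Nfkb1, the precursor of the p50 subunit, was at 1.15 and 0.94, with 3 further probes between 0.21 and 0.63, while Rela, the main transactivating subunit, was at 0.37 and 0.44. Nfkbie and the A20-binding protein gene Tnip1 averaged 0.58 and 0.56. The ubiquitin ligase gene Birc3 averaged 0.59 with a second probe at 0.11. Tnfaip3, which encodes the deubiquitinating enzyme A20, was at 0.36 and 0.35. Subunits of the IkB kinase complex, which frees NF-kB from its inhibitors, had means of 0.15 (the kinase gene Ikbkb), 0.08 (the kinase gene Chuk) and -0.06 (the regulatory subunit gene Ikbkg).

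In the list of IL-1 and Toll receptors and adaptors, 0 of 23 measured genes of 27 were 2-fold higher and 2 were higher by at least 0.5, with a median of 0.06. These were Tlr2, a receptor for bacterial lipoproteins (0.88 and 0.97), and Il1rl1, the receptor of interleukin-33 (0.91 and 0.87). Other Il1rl1 probes averaged 0.40 and 0.71. The IL-1 receptor gene Il1r1 stood at 0.75 and 0.41. Downstream, Myd88 averaged 0.22, Irak1 -0.01, Irak2 -0.03 and Traf6 0.09. The RNase gene Zc3h12a, whose product degrades Il6 mRNA, was at 1.25 and 0.92, and Rgs16, an inhibitor of G-protein signalling, was at 1.03 and 0.73. They were the members past 0.5 of the 27 measured genes of the feedback list, whose median was -0.003. The untreated Zc3h12a signal was well above background on 1 array only.

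Of 16 adhesion molecules, 2 were 2-fold higher and 0 were lower. Icam1, the ligand of leukocyte integrins, stood at 2.03 and 1.64, a mean of 1.83 ± 0.19 or 3.57-fold. A second Icam1 probe averaged 0.46, with an untreated signal not well above background on either array. Vcam1, the ligand of the integrin VLA-4, averaged 1.04 and its second probe 0.39. The hyaluronan receptor gene Cd44 averaged 0.46, and those of the endothelial selectins Sele and Selp 0.08 and 0.13.

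Among 16 measured serpins of 19, Serpina3g and Serpinb2 passed 0.5. Serpina3g, an inhibitor of cysteine and serine proteases, stood at 2.63 and 2.47, a mean of 2.55 ± 0.08 or 5.87-fold. Its paralogs Serpina3f and Serpina3m averaged 0.39 and 0.01, and probes to this family may share hybridisation. Serpinb2, an inhibitor of plasminogen activators, stood at 1.03 and 0.99, and a second probe averaged 1.00.

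In the acute-phase, complement and innate defence list, 0 of 18 measured genes of 25 passed 1 and 4 passed 0.5, with a median of 0.09. They were the antiprotease gene Slpi (1.00 and 0.95), the serum amyloid gene Saa3 (0.74 and 1.05), the pentraxin gene Ptx3 (0.75 and 0.80) and complement C3 (0.70 and 0.54). The untreated Saa3 signal was not well above background on either array, so the ratio is a lower bound of at least 1.74-fold. Slpi was at 1.97-fold, and at 2.60-fold with the scanner's processed signals. Second probes of C3 and Ptx3 averaged -0.095 and 0.72. In the MHC class I list, 9 of 22 measured genes of 26 were higher by at least 0.5 and 0 were lower, with a median of 0.22. H2-T10 averaged 0.99, H2-K1 0.76 and H2-D1 0.58, and Tapbp, which loads peptides onto class I molecules, averaged 0.52. Other probes averaged 0.43 and 0.54 for H2-K1 and 0.20 for Tapbp. The light chain gene B2m averaged 0.04 and the peptide transporter gene Tap1 0.07. Class I genes are near-identical in parts, so the probes cannot be assigned to single genes with confidence, and 4 further probes of H2-Q10 averaged -0.06 to 0.32.

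Plscr1, a phospholipid scramblase gene known to respond to interferon, was the 1 gene of 27 measured interferon-stimulated genes (of 34 listed) past either threshold. It stood at 1.43 and 1.39, a mean of 1.41 or 2.65-fold, and its other 2 probes averaged 1.35 and 1.34. The list median was 0.013. The interferon-induced genes Ifit1, Isg15 and Mx1 each had a mean of -0.05.

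Genes of matrix degradation stood in both directions. Of 30 measured proteases and inhibitors of 32, 3 were higher by at least 0.5 and 2 were lower. Stromelysin genes Mmp3 (0.98 and 0.85) and Mmp10 (0.76 and 0.69) and the gelatinase gene Mmp9 (1.01 and 0.76) were higher, and a second Mmp9 probe averaged 0.65. The aggrecanase gene Adamts5 was at -0.98 and -0.97, a mean of -0.97, which is 1.96-fold lower and the lowest mean among the lower genes. Adamts1, a protease of versican and aggrecan, was at -0.93 and -0.74. The second probes of Adamts5 and Adamts1 averaged -0.28 and -0.35. The inhibitors Timp2 and Timp3 both averaged -0.17.

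The matrix itself showed 1 gene of 33 past 0.5. It was Dcn, which encodes decorin, a small proteoglycan that binds collagen, at 0.75 and 0.84. Col3a1 averaged -0.24, Fn1 0.38 and Ogn -0.48, and the list median was 0.06. Spots of Col1a1 and Col1a2 were saturated in the Cy5 channel of both arrays, so their means near 0 (0.03 for each) are not measured ratios. None of 10 measured hyaluronan genes of 12 and none of 16 contractile genes passed 0.5. Over all genes 0.50% were higher and 0.117% were lower at this threshold, so the absence of passing genes does not set these lists apart. Has2, the main hyaluronan synthase of fibroblasts, averaged -0.22, and Tnfaip6, which binds hyaluronan, averaged 0.39.

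Of 24 measured growth factors of 27, 2 were higher by at least 0.5 and 1 was lower, with a median of -0.008. Vegfc, which drives lymphatic vessel growth, stood at 1.33 and 1.38, a mean of 1.36 or 2.56-fold. Fgf7, a fibroblast-made mitogen of keratinocytes, was at 0.60 and 0.74, and Vegfa was at 0.77 and 0.34. The neurotrophin gene Bdnf was lower, at -0.55 and -0.55, and so was Tgfb3, at -0.67 and -0.64, the 1 gene of 24 measured in the TGF-beta and BMP list past 0.5. A second Bdnf probe averaged -0.39. Tgfb2 was at -0.62 and -0.35, and the mean of Tgfb1 was 0.28. The Wnt regulators Dkk2 and Lgr5 averaged -0.70 and -0.64, and the growth factor gene Ptn averaged -0.56.

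Of the transcription factors of mesenchymal cells, Twist2 and Twist1 stood on opposite sides. Twist2 was at 1.44 and 1.28, a mean of 1.36 or 2.56-fold, and Twist1 was at -0.57 and -0.53. Zfp503, a zinc finger repressor, was at -0.87 and -0.60. The list of 25 had a median of -0.13, with 1 gene past 0.5 and 2 past -0.5. The chondrogenic factor Sox9 averaged -0.63 but passed -0.5 on 1 array alone, and the nuclear receptor gene Nr2f2 and the homeobox gene Meis2, which were not on the list, averaged -0.61 and -0.65. Other probes averaged -0.37 and 0.08 for Nr2f2 and -0.49 for Meis2.

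Immediate early genes, which respond within minutes to many stimuli, showed 3 of 30 past 1, and these were the same members that passed 0.5. Cebpd and Cebpb, bZIP factors that act on acute-phase promoters, averaged 1.23 and 1.17, and a second Cebpb probe averaged 0.95. Ier3, an early survival gene, averaged 1.11. Fos averaged -0.31, Egr1 -0.41, Jun 0.11 and Junb 0.22. The median of the list at 4 h was 0.04.

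Death receptors and caspases had 2 of 22 measured genes past 1. Fas, a receptor that triggers apoptosis, was at 1.50 and 1.30, although its second probe averaged -0.027. Casp4, an inflammatory caspase that senses lipopolysaccharide in the cytosol, was at 1.25 and 1.14. Cd40, listed on the array by its older symbol Tnfrsf5, averaged 1.12 and is a co-stimulatory receptor of the same family as Fas. Tnfrsf11b, which encodes the decoy receptor osteoprotegerin, averaged -0.50.

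In the insulin, IGF and lipid metabolism list, 24 of 26 genes were measured. Of these, 1 was 2-fold higher, 3 were higher by at least 0.5 and 0 were lower, with a median of 0.04. Angptl4, a secreted inhibitor of lipoprotein lipase, stood at 2.03 and 1.75, a mean of 1.89 ± 0.14 or 3.70-fold. Ch25h, which makes 25-hydroxycholesterol, was at 0.88 and 1.20, and Cyp7b1, an enzyme that hydroxylates this oxysterol further, was at 0.86 and 0.76. The insulin receptor substrate gene Irs1 was at -0.23 and -0.80. Among the prostaglandin, nitric oxide and redox enzymes, 0 of 27 measured passed 1 and 4 passed 0.5. These were haem oxygenase Hmox1 (0.84 and 0.81), Gch1, which makes the cofactor of nitric oxide synthases (0.91 and 0.67), prostaglandin E synthase Ptges (0.59 and 0.73) and metallothionein Mt2 (0.65 and 0.65). A second Gch1 probe averaged 0.29, with an untreated signal not well above background on either array. The inducible cyclooxygenase Ptgs2 was at 0.49 and 0.38, and Nos2 averaged 0.01.

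In the cell cycle list of 25, Cdk6, a partner of the D-type cyclins, was higher at 0.93 and 0.70, with other probes at 0.19 and 0.36. Lmnb1, a nuclear lamin, was lower at -0.73 and -1.08. Mki67, Top2a and Ccna2, markers of proliferating cells, averaged -0.02, 0.09 and -0.11. Of the further lower genes, the RNA-binding protein genes Raly and Taf15 averaged -0.80 and -0.78, Setbp1 -0.78 and the water channel gene Aqp5 -0.74. Second probes of Setbp1 and Taf15 averaged 0.005 and -0.05, so these values rest on 1 probe each.

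**Figure D3:**
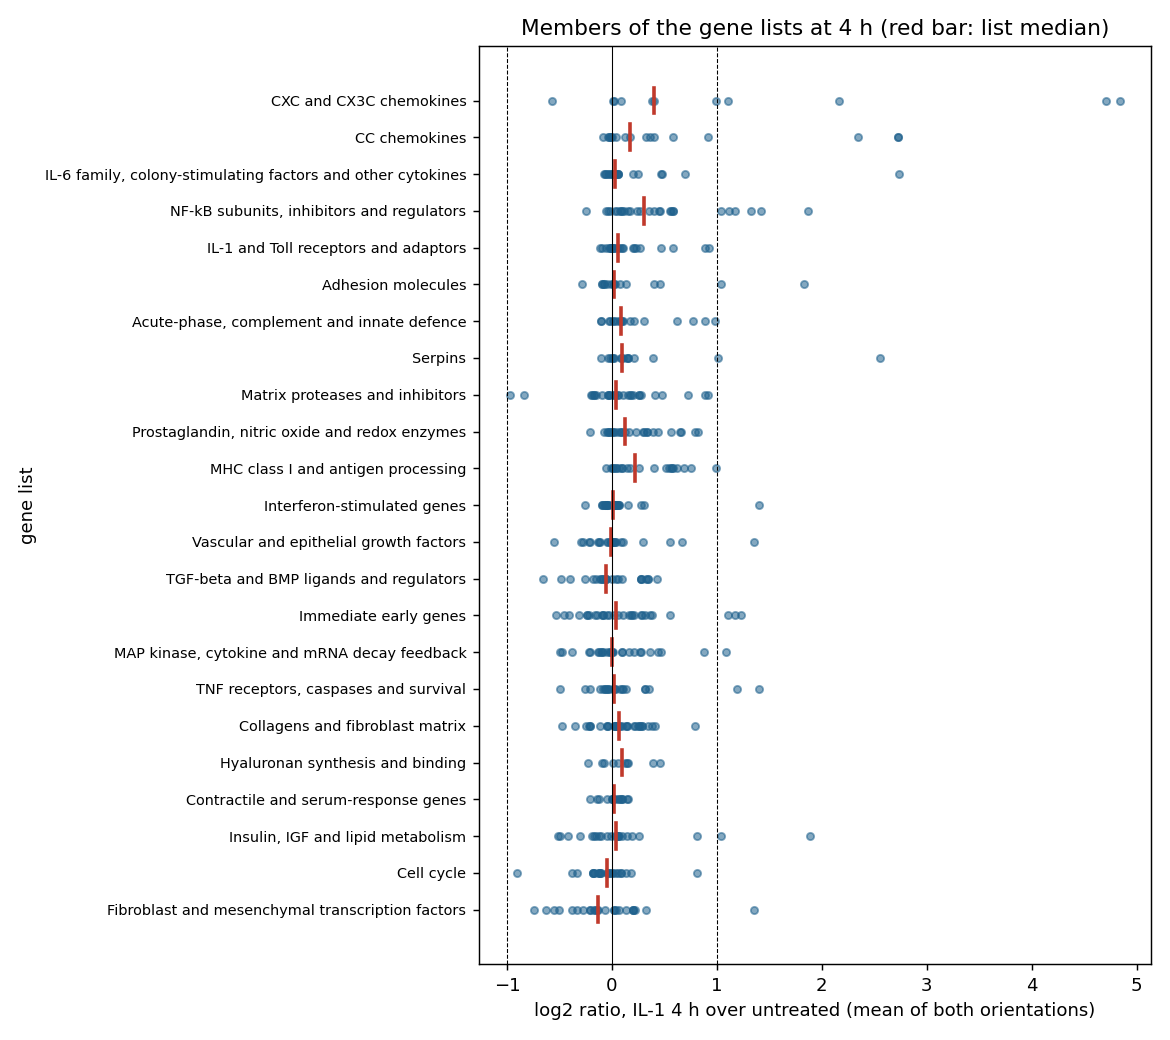
Log2 ratio at 4 h of every measured member of the functional lists, 1 point per gene, as the mean of both arrays; red bars are list medians and dashed lines mark 1 and -1. The CXC list reaches furthest right, with Cxcl1 at 4.84, while its median is 0.40, and the interferon-stimulated list has 1 point past 1, Plscr1.

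Fibroblast markers were well above background in both RNAs for all 12 genes listed, with a median ratio of 0.02. The list includes Col1a1, Col1a2 and S100a4, which had saturated spots, and Vim, which passed -1 on replicate 1 alone. Its median therefore rests in part on ratios that saturation bounds or that differed between the arrays. Markers of keratinocytes (6 of 8 measured), endothelial cells (4 of 7), macrophages and leukocytes (7 of 8) and melanocytes and Schwann cells (5 of 7) had medians between -0.02 and 0.06, and their members lay between -0.16 and 0.13. Pecam1, Cdh5, Epcam, Cdh1, Itgam and Tyr were among those that did not pass the filter on dim probes, whereas Ptprc and Adgre1 did. Lyz2, of the macrophage and leukocyte list, was bright, with a mean log2 signal of 11.65 against a list median of 7.01. Its signal was well above background in both RNAs on both 4 h arrays. In bulk RNA, a larger share of cells expressing a gene and more RNA per cell cannot be told apart.

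The 4 h ratios were then set beside those at 1 h and 2 h, each measured against untreated RNA on its own pair of arrays. All times have untreated cells as their control, and since these may share an extract, only the values are given. Of the 30 genes, 14 had a smaller ratio at 4 h than at 2 h on both arrays and 10 had a larger one. None of them differed 2-fold between these times on both. The 30 were chosen by their 4 h ratios, so genes past 2-fold at 2 h alone are left out of these counts. Nfkbie, for example, stood at 1.72 at 2 h and 0.58 at 4 h. The same counts over all genes were not made, so the split describes these 30 only. Cxcl1 stood at 6.21, 5.49 and 4.84 at 1, 2 and 4 h, Ccl20 at 3.82, 3.67 and 2.73, and Nfkbia at 3.02, 2.65 and 1.87. Nfkbiz stood at 3.37, 2.03 and 1.18, Bcl3 at 2.46, 2.24 and 1.33, and Cebpd at 1.44, 2.08 and 1.23. These were lower at 4 h than at 2 h, whereas another set had its highest value at 4 h. Cxcl5 stood at 3.62, 4.34 and 4.71, Serpina3g at 1.27, 1.90 and 2.55, Plscr1 at 0.59, 1.05 and 1.41, and Vegfc at 0.26, 0.83 and 1.36. Below the 2-fold threshold, Serpinb2 (0.13, 0.47 and 1.01), H2-T10 (0.14, 0.49 and 0.99), Slpi (0.29, 0.61 and 0.98), Mmp3 (0.22, 0.41 and 0.91) and Dcn (0.14, 0.44 and 0.80) were highest at 4 h. Ccl2 (2.72, 2.54 and 2.73), Ccl7 (2.36, 2.32 and 2.34) and Cebpb (1.20, 1.17 and 1.17) lay close together at all times, with the treated Ccl2 spot saturated on 1 of the 4 h arrays. Lower genes also differed in course, with Adamts5 at -0.33, -0.76 and -0.97, Tgfb3 at -0.12, -0.36 and -0.65, and Zfp503 at -1.18, -0.96 and -0.74.

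**Figure D4:**
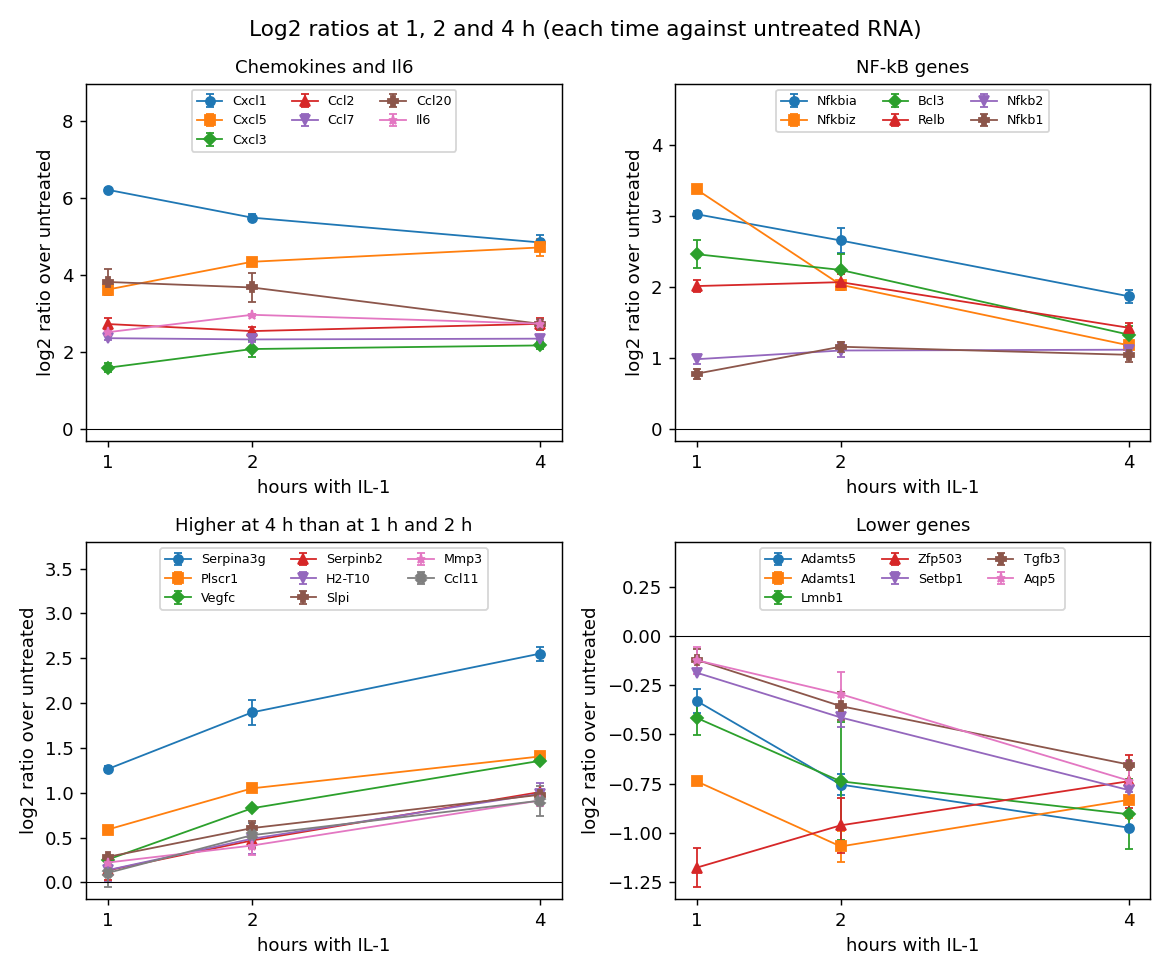
Log2 ratio over untreated at 1, 2 and 4 h for 4 sets of genes chosen after their values were seen; points are means of both arrays of a time and bars reach to either array. Nfkbiz goes from 3.37 to 1.18 between 1 h and 4 h, Vegfc from 0.26 to 1.36 and Adamts5 from -0.33 to -0.97.

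The sizes of the ratios depended on how the signals were background-corrected and normalized. The scanner's own background-subtracted and dye-normalized signals gave larger ratios for dim genes, and their fold was over 1.5 times the one above for 4 of the 30 genes and within it for the other 26. Ccl20 was then at 15.4-fold in place of 6.63-fold, Cxcl3 at 10.7-fold in place of 4.50-fold, Icam1 at 6.32-fold in place of 3.57-fold and Casp4 at 4.02-fold in place of 2.29-fold. Outside the 30, Saa3 was at 9.01-fold, Csf2 at 7.31-fold, Zc3h12a at 6.38-fold and Ccl11 at 4.50-fold on that scale. Lgr5, at -0.64 here, was at -1.50. With those signals 57 genes were 2-fold higher and 5 were 2-fold lower; the lower ones were Adamts5, Lgr5, Setbp1, Slc5a7 and a transcript listed as AK087278. Median centring in place of loess gave 13 higher genes, 12 of them among the 30. With no background correction Casp4, Ier3, Lrig1, Cd40 and Vcam1 were no longer 2-fold higher on both arrays, and neither were Fas and Vcam1 with the mean of a gene's probes. Replicate 1 alone gave 42 higher and 13 lower genes, and replicate 2 alone 50 and 2; the 13 were Vim and the 12 genes with opposite signs, all with saturated spots, and the 2 were Lmnb1 and Jph2. Saturation touched 73 genes on the 4 h arrays, of which 1, Ccl2, was among the 111 higher genes and 0 were among the 26 lower.

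**Figure D5:**
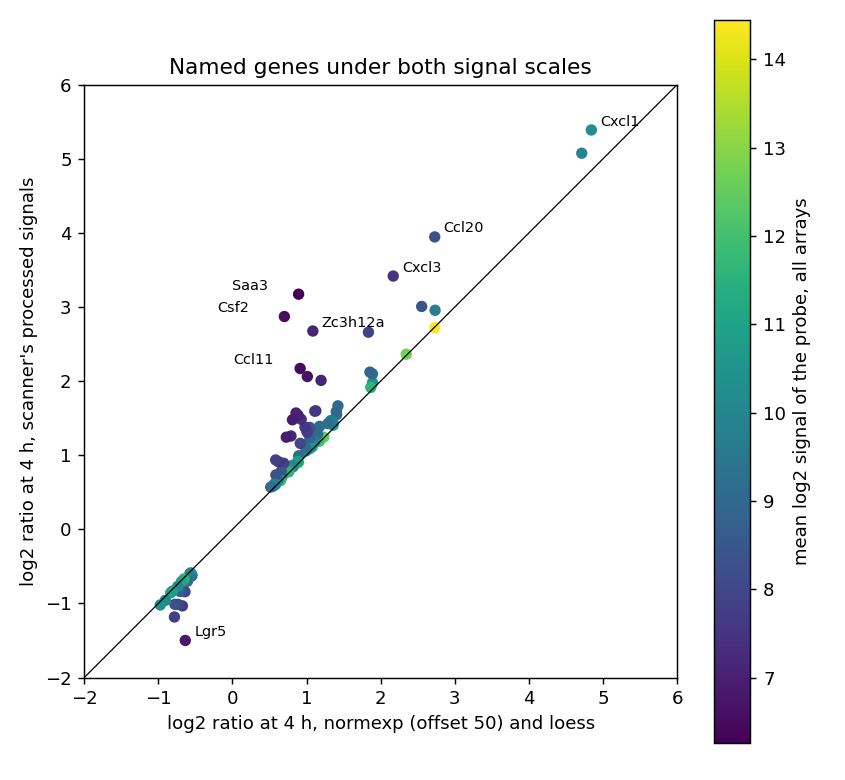
Log2 ratio at 4 h from the scanner's processed signals (vertical axis) against that from normexp-corrected, loess-normalized signals (horizontal axis) for the 95 named genes, coloured by the probe's mean log2 signal over all arrays; the line marks equal values. Bright genes lie near the line, and the dim genes Saa3, Csf2, Zc3h12a and Ccl11 lie above it.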

How the data were processed

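Total RNA was labelled and hybridised to Agilent two-colour arrays, and spots were read by the authors with Agilent Feature Extraction 7.5.1, per the file headers. The deposited intensity columns hold each spot's mean signal and local background, and the processed intensity columns were background-subtracted and dye-normalized, per the file headers. The authors' deposited value table holds log2 ratios. Each of its 4 h columns equals the processed log2 ratio of the other array of the pair for 100% of spots (tolerance 0.001), with medians of -0.0325 and 0.0283, so the columns are exchanged relative to the scanner files. Exchanged columns leave pair means as they are, and exchanged scanner files would turn every sign.

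Of 43790 spots, 2256 were controls. With limma 3.58.1 in R 4.3.3, normexp (offset 50) was applied to the mean signals, followed by loess within each array, where controls had weight 0; outlier flags were removed and saturated spots kept. A probe needed the above-background flag on all arrays of 1 or more of the 4 conditions, in the channel of that RNA, which kept 30634 of 41174, of which 57 lacked a value and were dropped. The flag is permissive, since up to 8.6% of 314 negative controls carried it on a 4 h array. Median signals on these arrays were 121.8 to 129.2, against 68.37 to 97.23 for negative controls. A gene's brightest probe stood for it, named through its RefSeq accession for 22072 probes, and 15454 genes had a current symbol.

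The dye swap counts as 1 sample, so genes were counted by size with no test; the number of arrays limits the precision. The rule for named genes took all those past 1 in size on both arrays. It added the next 20 higher and 20 lower, and list members past 0.5. Not all of them are described above. Those past 1 on both arrays but left out are Micall2 (mean 1.29), Rab32 (1.15), LOC547372 (1.89) and NAP066348-1 (1.85). Also left out are P2ry2, Prnd, Ets2, Olr1, Npm3, Rian, Flrt3, Mageh1, Lrrn3, Lgalsl, H2-Q1, H2-Q7, H2-T22 and H2-T23. Up to 4 other members per list are given, except where more describe a list. These other members, and the genes shown by time, were chosen after their values were seen. The members and lists were chosen with earlier results of these data known. The alternatives were an offset of 16, no background correction, median centring, processed signals, the deposited table, the mean of a gene's probes, other filters, single arrays and, added after seeing the data, median pixel signals.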

Additional observations from a re-analysis of the deposited data

Results flagged for a closer look

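Some immediate early genes stood on opposite sides of the untreated level at 1 h and 4 h on both arrays of each time. Nr4a1, an orphan nuclear receptor gene, was at -0.53 at 4 h (-0.48 and -0.58) and at 1.64 at 1 h. Egr2, a zinc finger factor, was at -0.46 at 4 h and 1.28 at 1 h. Its relative Egr3 was at -0.24 at 4 h and 1.01 at 1 h. The treated Egr3 signal at 4 h was not well above background on either array, so the 4 h ratio is not a measured size, and it was -1.19 with the scanner's processed signals. Klf10, a TGF-beta-inducible factor, was at -0.22 at 4 h and 1.39 at 1 h. At 2 h, Nr4a1 was at -0.90, lower than at 4 h, and Klf10 was at -0.20, while Egr2 and Egr3 were at 0.05 and 0.11. All of these genes are covered by the rule that follows. They were chosen as members of the lists with values past 0.2 in opposite directions, a size set after the values were seen, and the difference between the times was not tested.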

How the results depend on the processing

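No paired analysis was possible because the results come from no test. All 30 genes stayed 2-fold higher with an offset of 16 (47 genes in all) and with processed scanner signals (57). Both settings put more genes past the threshold than the main one, so they could hardly lose genes already past it and are a weak check. The deposited table holds the same processed ratios with the columns exchanged, so its 57 genes are no separate check. Single arrays gave 42 to 50 genes and hold all 30 by the counting rule, which required both arrays. Median centring gave 13, of which 12 were among the 30, and after it the measured probes still had array medians of 0.2333 and -0.2751. The number 2-fold lower was 5 with the processed signals and with the deposited table and 2 to 13 on single arrays. The number higher by at least 0.5 was 40 with median centring, 207 with the processed signals and with the deposited table, and 174 to 193 on single arrays. The number lower by at least 0.5 was 44 with an offset of 16, 1 with median centring, 116 with the processed signals and with the deposited table, 16 with the mean of a gene's probes and 66 to 90 on single arrays. The cause was not tested. The other alternatives stayed within 1.5 times these counts, but no background correction lost Casp4, Ier3, Lrig1, Cd40 and Vcam1 from the 30, the mean of a gene's probes lost Fas and Vcam1, and median pixel signals lost Lrig1 and Vcam1. Of the 95 genes named by the rule above, 0 changed sign under any alternative. All 95 were past 0.5 in the same direction on both arrays, so single arrays could not reverse them. Other genes described in the text, such as Tnf and Irak1, were not among the 95 and were not checked. List medians had no such filter, and 13 of them changed sign. Ratios of dim genes differed between the main and the processed signals, and the cause of this was not tested either.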
